A study of Mus musculus with 8 samples.

Results

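Cd4, Cd8a and Cd8b1 encode the coreceptors that T cells carry beside the T cell receptor. The loci were taken as the gene bodies with 20 kb on either side in the mouse build mm10 (GENCODE annotation), and all 3 lie on chromosome 6. The Cd4 window runs over chr6:124844692-124908221 around a gene on the minus strand at 124864692 to 124888221. The Cd8b1 window runs over chr6:71302788-71357494 around a gene on the plus strand at 71322788 to 71337494. The Cd8a window runs over chr6:71353427-71399173 around a gene on the plus strand at 71373427 to 71379173. The Cd8b1 and Cd8a windows overlap and share 42 CpGs. Together the windows held 1898 CpGs listed in all 4 libraries, of 18684786 such CpGs in the series. Of these, 937 lay in the Cd4 window, 548 in the Cd8b1 window and 455 in the Cd8a window.

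Lymphocytes from the spleens of C57BL/6J mice aged 6 to 8 weeks, with no treatment named in the labels, were profiled for 5-methylcytosine (5mC) with oxidative bisulfite sequencing of the whole genome (WGoxBS). In WGoxBS, unmodified cytosine and, after the oxidation step, 5-hydroxymethylcytosine are read as T, so the C that remains is read as 5mC. The 4 groups were B cells of females and of males and T cells of females and of males, each with 2 samples in the labels. The 2 samples in each group point to a single table, so each group was 1 library, its values have no spread between replicates, and B and T cells were each represented by 1 female and 1 male library. The B cells were resting CD43- cells. The T cells were naive CD4+ CD62Lhi CD44lo CD25- cells, sorted after cells with CD8a, B220, DX5, CD11b, Ter-119, CD25 or a gamma/delta T cell receptor had been removed. Cells of several mice were pooled in each sample, so no value belongs to a single animal.

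CD4 binds MHC class II and CD8 binds MHC class I on the cell that presents the antigen, and both bring the kinase Lck to the T cell receptor. CD8 is usually a pair of a CD8 alpha chain, from Cd8a, and a CD8 beta chain, from Cd8b1. Precursors in the thymus express both coreceptors before they keep either CD4 or CD8. The Cd4 gene is controlled by enhancers upstream and in the gene and by a silencer in intron 1, whereas the Cd8 genes share several enhancers spread around and between them. ThPOK, encoded by Zbtb7b, and Runx3 act against each other in this choice. Mature naive CD4+ T cells express Cd4 and not the Cd8 genes, and resting B cells express none of the 3. None of the stretches described here was assigned to a known enhancer or silencer.

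Methylation is given as the percentage of methylated reads over the CpGs of a region listed in all 4 libraries, with 95% Wilson intervals that cover counting error only. A read over several CpGs counts at each of them, so these intervals are narrower than independent reads would give. B minus T is the mean of both B libraries minus the mean of both T libraries, in percentage points. A region was called when edgeR's quasi-likelihood test gave a Benjamini-Hochberg adjusted p below 0.05 over all regions of its kind and the difference was at least 20 points. The libraries held 280919817 to 354634149 reads at CpGs, with a median of 14 to 17 reads per autosomal CpG and 13 to 18 in the windows. The cell labels were checked by promoters of marker genes. Of 12 T cell marker promoters, 8 were called higher in B cells and 3 more passed the adjusted p only, with mean levels of 0% to 88.8% in T cells and 3.76% to 94.5% in B cells. Over all 20501 promoters, 0.956% were called higher in B cells and 16.7% passed the adjusted p only in that direction. Themis was at 0% in both T libraries. Of 8 B cell marker promoters, 6 were called lower in B cells and the other 2 passed the adjusted p only, with 1.49% to 27.5% in B cells and 4.99% to 94.8% in T cells, against 0.41% of all promoters called and 1.79% past the adjusted p only in this direction. None of 5 myeloid and 4 natural killer promoters was called, although Itgam (13.0 points) and Lyz2 (-16.8 points) passed the adjusted p. Mean levels of the myeloid promoters spanned 47.8% to 89.4% in B cells and 39.9% to 91.2% in T cells. Those of the natural killer promoters spanned 29.0% to 87.6% and 18.9% to 89.0%, and their part in the results was not tested.

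The loci held stretches of neighbouring CpGs with low methylation. A low stretch was defined as at least 4 listed CpGs in a row whose share of methylated reads, taken over 3 neighbouring CpGs, stayed below 30% in a library. Among stretches of at most 300 bases found in female T cells, 6 were below 20% in both T libraries and at least 50 points higher in B cells. Of these, 5 are shown first, as examples of the contrast outside the gene starts, and the other one with its motif. Capitals mark the CpGs, and distances count from the start of the gene, positive in the direction of transcription. The Cd4 sequences are written on the minus strand, which is the strand of the gene.
Cd4 intron 1, +4.49 to +4.73 kb, chr6:124883496-124883734: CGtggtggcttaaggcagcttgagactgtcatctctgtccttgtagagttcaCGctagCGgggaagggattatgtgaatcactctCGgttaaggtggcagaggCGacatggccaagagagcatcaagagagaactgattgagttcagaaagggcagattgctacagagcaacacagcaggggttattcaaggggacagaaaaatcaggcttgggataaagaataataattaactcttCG
Cd8b1 upstream, -15.2 to -14.9 kb, in an intron of Smyd1, chr6:71307599-71307890: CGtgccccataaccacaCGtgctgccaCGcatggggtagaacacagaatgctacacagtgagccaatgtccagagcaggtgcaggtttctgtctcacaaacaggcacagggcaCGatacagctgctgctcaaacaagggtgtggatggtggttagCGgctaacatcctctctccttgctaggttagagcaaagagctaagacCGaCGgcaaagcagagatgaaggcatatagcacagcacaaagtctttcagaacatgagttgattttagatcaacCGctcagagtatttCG
Cd8b1 intron 3, +7.85 to +7.90 kb, chr6:71330636-71330683: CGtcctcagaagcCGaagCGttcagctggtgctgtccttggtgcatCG
Cd8a intron 4 and exon 5, +3.34 to +3.49 kb, chr6:71376769-71376921: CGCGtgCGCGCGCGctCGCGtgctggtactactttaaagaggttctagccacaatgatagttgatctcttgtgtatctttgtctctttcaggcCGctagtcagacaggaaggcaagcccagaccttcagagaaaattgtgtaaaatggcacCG
Cd8a downstream, +14.1 to +14.3 kb, chr6:71387542-71387708: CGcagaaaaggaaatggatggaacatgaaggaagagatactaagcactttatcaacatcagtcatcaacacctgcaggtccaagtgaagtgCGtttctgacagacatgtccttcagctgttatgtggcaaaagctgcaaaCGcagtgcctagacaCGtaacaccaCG

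The stretch in Cd4 intron 1 was methylated at 93.1% in female B cells and 92.8% in male B cells, against 10.0% in female T cells and 7.83% in male T cells. The stretch upstream of Cd8b1 read 81.0% and 81.9% in female and male B cells, whereas 0 of 190 reads were methylated in female T cells and 0.633% of 158 reads in male T cells. The 0 reads in female T cells allow a level of up to 1.98% by the Wilson interval. This limit is too tight, because a read counts at each of the neighbouring CpGs it covers. All 9 CpGs of this stretch were at 0% in female T cells and 8 of them in male T cells. In the stretch of Cd8b1 intron 3, levels were 90.4% and 89.7% in female and male B cells and 12.8% and 14.5% in female and male T cells. The stretch over the end of Cd8a intron 4 opens with a run of CG repeats and was at 98% and 96.9% in female and male B cells, with 10.3% and 19.2% in female and male T cells. The CpGs of the repeat had only 6 to 8 reads each in female T cells and 8 in male T cells. Single CpGs of the stretch reached 50% in female and 62.5% in male T cells. Downstream of Cd8a, levels were 98.9% and 95.1% in female and male B cells and 15.2% and 4.29% in female and male T cells. The stretches were selected for low levels in both T libraries and for a large B minus T difference, so these values are a description and carry no test.

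Another stretch in the Cd4 gene was low in a B library too and is shown for that reason.
Cd4 intron 1, +2.84 to +3.01 kb, chr6:124885213-124885379: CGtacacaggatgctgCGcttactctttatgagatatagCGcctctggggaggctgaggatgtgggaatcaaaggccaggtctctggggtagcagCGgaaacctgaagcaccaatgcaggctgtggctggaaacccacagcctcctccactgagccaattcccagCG
Here 22.5% of reads were methylated in female B cells and 16.2% in male B cells, with 0% of 114 reads in female T cells and 0% of 123 reads in male T cells. The B libraries were thus the higher ones here as well, but at levels below those of the whole Cd4 gene body in B cells. Intron 1 is known to hold the Cd4 silencer, whose position was not compared with the stretch.

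The Cd4 promoter was the coreceptor promoter with the lowest methylation in T cells. Over 1 kb on either side of the start (23 CpGs, chr6:124887221-124889221), 70.3% of reads were methylated in female B cells (65.7% to 74.4%) and 73.6% in male B cells (69.3% to 77.4%). The T cells of females had 9.87% (7.43% to 13.0%) and those of males 9.19% (6.87% to 12.2%). Both T libraries lay far below both B libraries, by 60.4 points in females and 64.4 points in males. B minus T was 62.4 points (edgeR adjusted p 2.50e-73). It was the 18th largest difference among all promoters, of which 0.956% were called higher in B cells. Of its 23 promoter CpGs, 15 had 0 methylated reads in female T cells and 13 in male T cells, against 2 and 1 in female and male B cells.

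The Cd8b1 promoter differed by nearly as much, in T cells from which cells with CD8a had been removed. Over its 29 CpGs (chr6:71321788-71323788), the level was 88.5% in female B cells (85.4% to 91.1%) and 91.6% in male B cells (88.6% to 93.8%). The T cells of females had 29.2% (25.3% to 33.5%) and those of males 29.7% (25.5% to 34.2%). The intervals of the B and T libraries were far apart, and the levels of the sexes within a cell type overlapped. B minus T was 60.6 points (edgeR adjusted p 2.11e-69), the 21st largest. Low methylation was concentrated at the start, where the 1-kb tile centred at -0.288 kb read 83.0% and 84.7% in female and male B cells and 6.70% and 2.70% in female and male T cells. Smyd1, which encodes a methyltransferase of muscle cells, starts on the other strand within this promoter window. Its own window (31 CpGs, 46.3 points, adjusted p 4.19e-48) therefore shares most of its sequence with that of Cd8b1 and is not a separate result.

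The Cd8a promoter differed less. Levels over its 39 CpGs (chr6:71372427-71374427) were 84.7% (82.0% to 87.0%) in the B cells of females and 86.2% (83.0% to 88.8%) in those of males. In female and male T cells they were 56.1% (52.6% to 59.6%) and 57.2% (53.1% to 61.3%). The T cell mean was thus intermediate, but it joined CpGs of unlike levels. A stretch at the start was at 6.06% in female and 1.25% in male T cells. The median CpG of the promoter window was at 70.6% and 57.9% in female and male T cells. At intermediate CpGs, shares of cells and shares of alleles cannot be told apart in reads summed over a population. B minus T was 28.8 points (edgeR adjusted p 2.57e-18), the 94th largest. Leaving out a library leaves its cell type with 1 library, so the spread comes from the female and male libraries of the other cell type alone, and the lone library is assumed to vary like them. Such fits had no sex term and included promoters of the X chromosome, so differences between the sexes entered the shared spread. In these fits the common dispersion of all promoters was 0.0347 to 0.0459, against 0.0106 in the fit of all 4 libraries. The spread was also shared less between promoters. The prior degrees of freedom, which weigh the shared spread, were 3.78 to 4.06, whereas the fit of all 4 libraries used a fully shared spread. For Cd8a the adjusted p was 0.0627 without the male B library and 0.114 and 0.104 without the female or male T library, while the difference stayed between 28.0 and 29.5 points. In the same fits the adjusted p of the Cd4 and Cd8b1 promoters was at most 0.0341 and 0.0443.

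The Cd8a promoter held a low stretch at the start in T cells. The promoter sequence of Cd8a (RefSeq, GRCm38.p6, 250 bases before to 50 bases after the start, chr6:71373177-71373476) is shown because its only 3 CpGs, in capitals, all lie just behind the start.
Cd8a promoter: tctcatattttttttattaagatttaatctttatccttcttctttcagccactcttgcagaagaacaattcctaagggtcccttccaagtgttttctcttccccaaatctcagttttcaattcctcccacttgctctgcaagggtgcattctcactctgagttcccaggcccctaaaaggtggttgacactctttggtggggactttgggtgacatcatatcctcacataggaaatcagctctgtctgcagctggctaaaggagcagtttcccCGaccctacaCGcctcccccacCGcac
Their levels were 10.0%, 29.4% and 21.1% in female B cells and 8.33%, 21.4% and 40% in male B cells, at 12 to 20 reads each. In T cells they were 0%, 21.4% and 0% in females at 26 to 28 reads and 0% each in males at 9 reads. These CpGs were at 40% or less in every library. The stretch that begins with them and reaches +0.182 kb in exon 1 (8 CpGs) was at 51.0% in both B libraries, 6.06% in female T cells and 1.25% in male T cells. The median promoter of the RefSeq table held 7 CGs. The RUNX motif TGTGGT, the motif AGATAA of Gata3 and its relatives and the E-box CAGGTG, searched on both strands, had no match in these 300 bases, and 16.8%, 11.2% and 20.2% of 32851 promoters held them. Of the 3 genes, 1 matched the table.

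**Figure D1:**
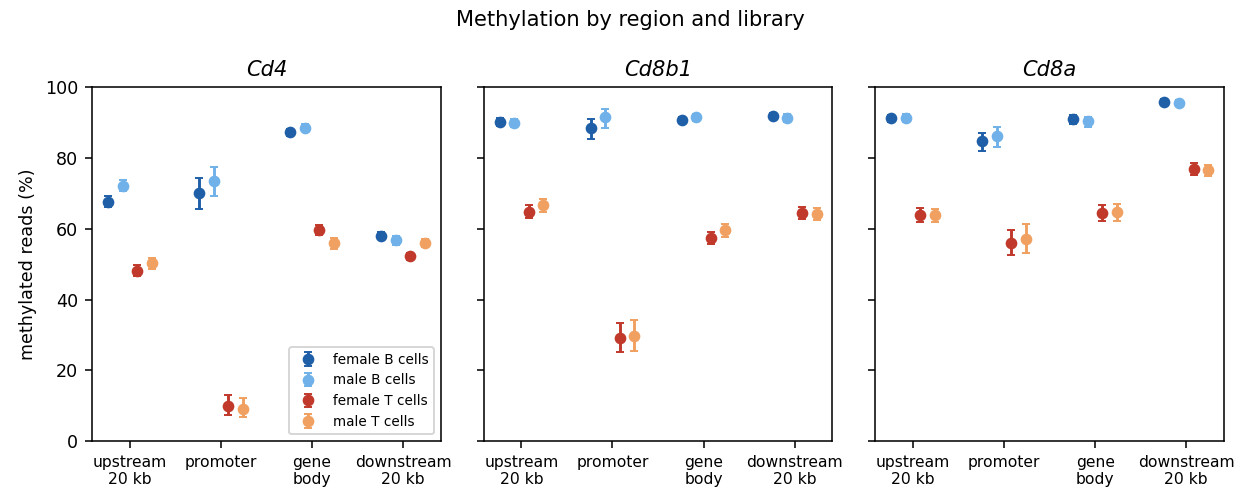
Methylated reads (%) in the 20 kb upstream, the promoter, the gene body and the 20 kb downstream of Cd4, Cd8b1 and Cd8a. Each point is 1 library and the bars are 95% Wilson intervals, and both T libraries lie below both B libraries in every region, with the smallest gap in the Cd4 downstream flank, where all 4 lie between 52.2% and 58.1%.

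Differences were also found inside the genes. Of the 18 introns, 13 held enough CpGs to be tested, and 7 of these were called higher in B cells, against 1.98% of 133023 introns of all protein-coding genes. None was called higher in T cells. The median B minus T of the 13 introns was 21.02 points, beside 1.17 points over all introns. Intron 1 of each gene begins within the promoter window and shares CpGs with it, so the values of intron 1 and promoter are not independent.

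Cd4 intron 1 covers 8386 bases and 94 of these CpGs (chr6:124879694-124888079). It was methylated at 83.9% and 86.1% in female and male B cells. The level was 27.3% and 24.2% in female and male T cells. The B minus T difference of 59.2 points (edgeR adjusted p 4.40e-180) had nearly the size of that at the promoter. Directly behind it, a stretch of 4 CpGs from +8.57 to +8.78 kb, over exon 2, intron 2 and exon 3, was also low in female T cells. It read 79.0% and 72.4% in female and male B cells and 22.2% and 5.97% in female and male T cells. Intron 2 was not among the tested introns. In the tested introns further on, the difference fell off. Intron 3 differed by 14.2 points (adjusted p 1.90e-12) and intron 5 by 8.66 points (9.67e-05), both under the 20 points required. Intron 6 (3.64 points, adjusted p 0.0506) and intron 7 (3.99 points, 0.545) did not pass the test. In these 2 introns the levels were 86.3% to 94.0% in every library.

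All 5 introns of Cd8b1 were called, with the largest differences in introns 3 and 4. Intron 4 differed most, by 59.98 points, with 82.0% and 84.5% in female and male B cells and 24.9% and 21.6% in female and male T cells. Intron 3 followed with 49.7 points, at 78.9% and 81.2% in female and male B cells and 30.1% and 30.6% in female and male T cells. The differences at introns 1, 2 and 5 were 25.1, 21.02 and 33.6 points. Intron 1 shares CpGs with the promoter window. Behind that window T cell levels in intron 1 were mostly higher, and this part was not tested alone. The adjusted p from edgeR lay between 7.45e-58 and 2.06e-31 for the 5 introns. In Cd8a, intron 4 was called with 49.3 points (adjusted p 1.52e-48), at 94.2% and 90.7% in female and male B cells and 43.6% and 42.8% in female and male T cells. Cd8a intron 1 (13.1 points, 0.000153) passed the adjusted p only, and intron 3 (8.80 points, 0.281) did not. In Cd8a intron 1 the female difference was 4.79 points and the male one 21.5 points. For Cd8a intron 3, with 5 CpGs, the sign differed between the sexes, at -1.99 points in females and 19.6 points in males.

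These intron calls rested on a spread shared by all introns. In the 4 fits that left out a library, the spread came from the other cell type alone and there was no sex term. The differences of the 7 introns lay between 20.1 and 61.6 points there. Unlike those of promoters, these fits kept a largely shared spread (prior degrees of freedom 41.8 to 53.9). The 2 kinds of region therefore cannot be ranked by how their calls held. With limma, which estimates the spread in another way, none of all introns passed, and the 7 introns had an adjusted p of 0.100. At an unadjusted p below 0.05, limma had 9 of the 13 introns and 29541 of all 133023.

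The whole gene bodies were called for each of the 3 genes, against 0.979% of 21139 gene bodies. Cd8b1 had the largest difference with 32.7 points (rank 49), followed by Cd4 with 30.1 points (rank 66) and Cd8a with 26.0 points (rank 105). Levels in the Cd4 body were 87.3% and 88.6% in female and male B cells and 59.7% and 56.0% in female and male T cells. The Cd8b1 body was at 90.8% and 91.6% in female and male B cells and 57.4% and 59.6% in female and male T cells. In the Cd8a body, the levels were 90.9% and 90.3% in female and male B cells and 64.5% and 64.7% in female and male T cells.

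The difference extended beyond the genes upstream of all 3 and downstream of the Cd8 genes. Each upstream flank includes the part of the promoter window that lies before the start, so flank and promoter are not independent. All 3 upstream flanks were called, against 0.417% of all upstream flanks, with 27.5 points at Cd8a (rank 28), 24.3 points at Cd8b1 (rank 42) and 20.7 points at Cd4 (rank 76). The Cd4 value stood just above the limit and was 19.7 points without female T cells and 18.4 points without male B cells. It also leaned on promoter CpGs. The 201 upstream CpGs outside the promoter window read 67.4% and 72.2% in female and male B cells. In female and male T cells they read 51.3% and 53.7%, a difference under 20 points that was not tested alone. Downstream, Cd8b1 was called with 27.4 points (rank 34), against 0.431% of all downstream flanks. Cd8a differed by 18.9 points there (adjusted p 4.57e-16) and missed the limit. At Cd4 the downstream difference was 3.28 points (edgeR adjusted p 0.138). That flank holds the low starts of Gpr162 and P3h3, so its mean joined CpGs of unlike levels. Of its 469 CpGs, 141 to 163 were at 0% in each library, while the median CpG was at 68.8% to 75.0%. The downstream flank of Cd8b1 and the upstream flank of Cd8a share a part in the middle of the DNA between the genes, so the 2 values are not independent.

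**Figure D2:**
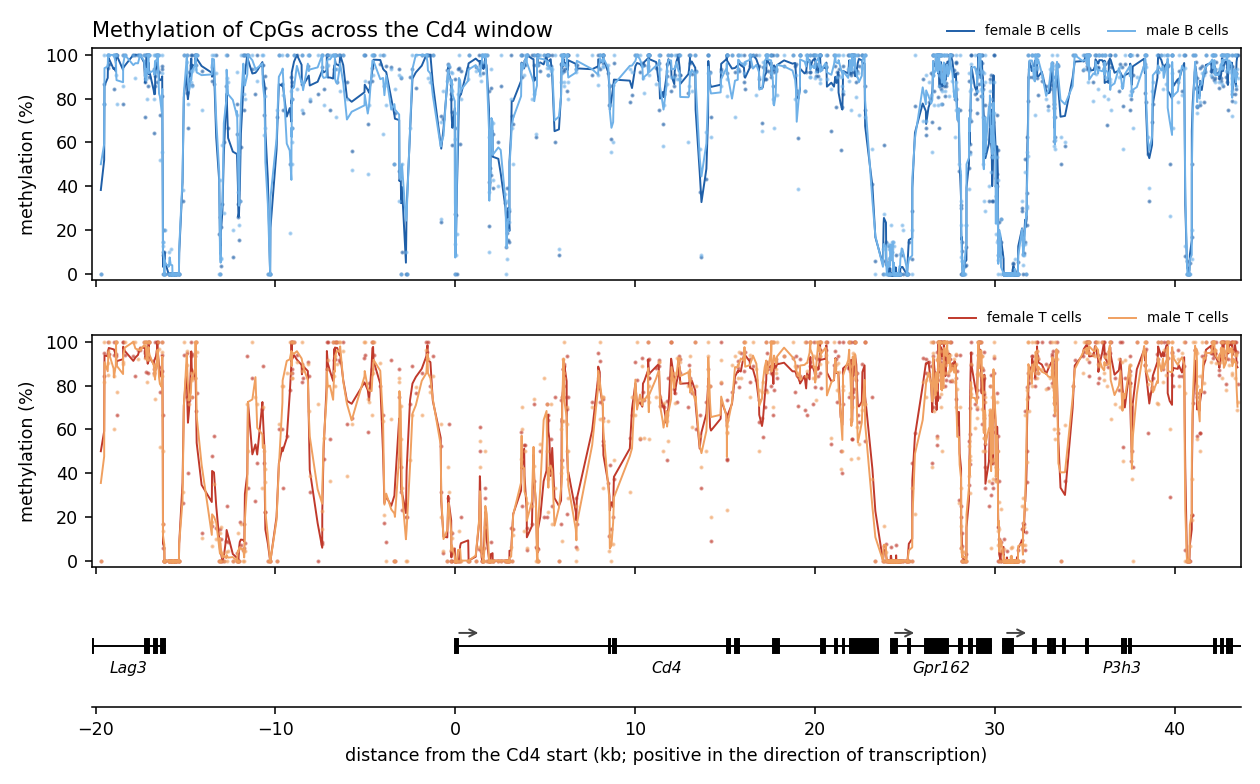
Methylation of every CpG listed in all 4 libraries across the Cd4 window, by distance from the Cd4 start (kb), with B cells above and T cells below. Points are CpGs, lines are the share of reads over 3 neighbouring CpGs, boxes are exons and arrows mark gene starts in the window, and both T cell lines stay low from -0.784 kb to +1.33 kb and from +1.42 kb to +3.22 kb, where the stretches have 3.28% to 7.10% methylated reads.

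Tiles of 1 kb placed these differences along the loci. In the Cd4 window, 16 of 62 tiles (25.8%) were called higher in B cells. In the Cd8b1 window 19 of 46 tiles (41.3%) and in the Cd8a window 17 of 42 (40.5%) were called, with 50 of 146 (34.2%) over the union. Over the genome, 2.36% of 1530528 tiles were called higher in B cells and 0.812% higher in T cells. No tile of the windows was called higher in T cells, and none passed the adjusted p in that direction without a limit on size. The median B minus T of the tiles was 14.3 points, beside 0.788 points over all tiles.

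At Cd4, most of the called tiles lay in 2 blocks, from the start into intron 1 and upstream of the gene. The largest difference of the window was 85.0 points at +0.721 kb in intron 1, where levels were 87.1% and 88.0% in female and male B cells and 5.00% and 0% in female and male T cells. The tile at +1.72 kb differed by 73.6 points and the tile over the start, centred at -0.279 kb, by 65.4 points. Further into intron 1, the tiles at +3.72, +4.72 and +6.72 kb differed by 62.2, 66.5 and 71.8 points. The tile between them at +2.72 kb differed by only 39.2 points, and is given here after its values were seen. Its levels were 41.6% and 40.6% in female and male B cells and 2.50% and 1.27% in female and male T cells, so the smaller difference went with a lower level in B cells. It holds the stretch of intron 1 that was low in B cells.

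Upstream of Cd4, the tile at -12.3 kb differed by 62.1 points, with 55.7% in female B cells, 77.1% in male B cells, 5.63% in female T cells and 2.97% in male T cells. The B libraries stood further apart there than the T libraries, with intervals that did not overlap (48.9% to 62.2% in females and 70.4% to 82.7% in males). Next to it, the tile at -11.3 kb differed by 57.8 points, at 93.7% and 92.1% in female and male B cells and 34.7% and 35.4% in female and male T cells. Between this block and the start, most tiles were not called.

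**Figure D3:**
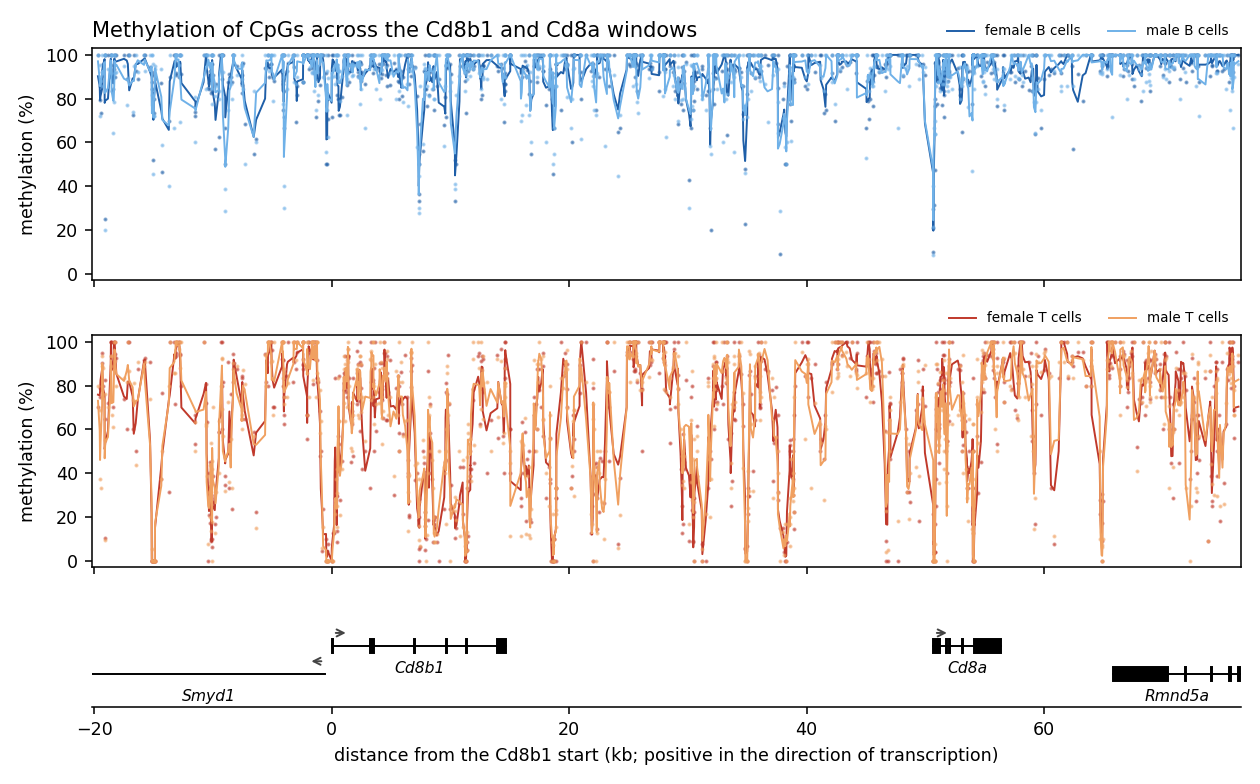
Methylation of every CpG listed in all 4 libraries across the joined Cd8b1 and Cd8a windows, by distance from the Cd8b1 start (kb), with B cells above and T cells below. Points are CpGs, lines are the share over 3 neighbouring CpGs and boxes are exons, and the T cell lines drop to low levels at many separate places while no B library has a low stretch.

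The Cd8b1 window had its largest difference at the start, with 79.2 points in the tile at -0.288 kb. It was followed by the tile at -15.3 kb in an intron of Smyd1 (71.5 points), which holds the upstream stretch printed above. Within the gene, the tiles at +8.71, +10.7 and +11.7 kb differed by 66.1, 54.2 and 68.6 points. The tile at -10.3 kb, also in Smyd1, differed by 61.1 points. Behind the gene, the tiles at +18.7 and +22.7 kb differed by 66.2 and 54.3 points. At +18.7 kb the levels were 87.2% and 87.5% in female and male B cells and 20.4% and 21.8% in female and male T cells. The called tiles thus lay on both sides of the gene and inside it, with tiles of high methylation in both cell types between them.

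In the Cd8a window, the tile with the largest difference lay behind the gene. At +14.1 kb, levels were 98.4% and 94.9% in female and male B cells and 18.6% and 8.33% in female and male T cells, a difference of 83.2 points. The tile at +3.07 kb over intron 4 differed by 60.7 points and the tile at -1.93 kb by 56.3 points. The tiles at -3.93, -11.9, -12.9 and -15.9 kb differed by 50.3, 54.1, 49.1 and 41.8 points. The tile at -19.9 kb (52.3 points) lies in the overlap of both windows, at +30.7 kb from the Cd8b1 start. These 8 tiles had 76.7% or more methylated reads in both B libraries and 48.9% or fewer in both T libraries.

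**Figure D4:**
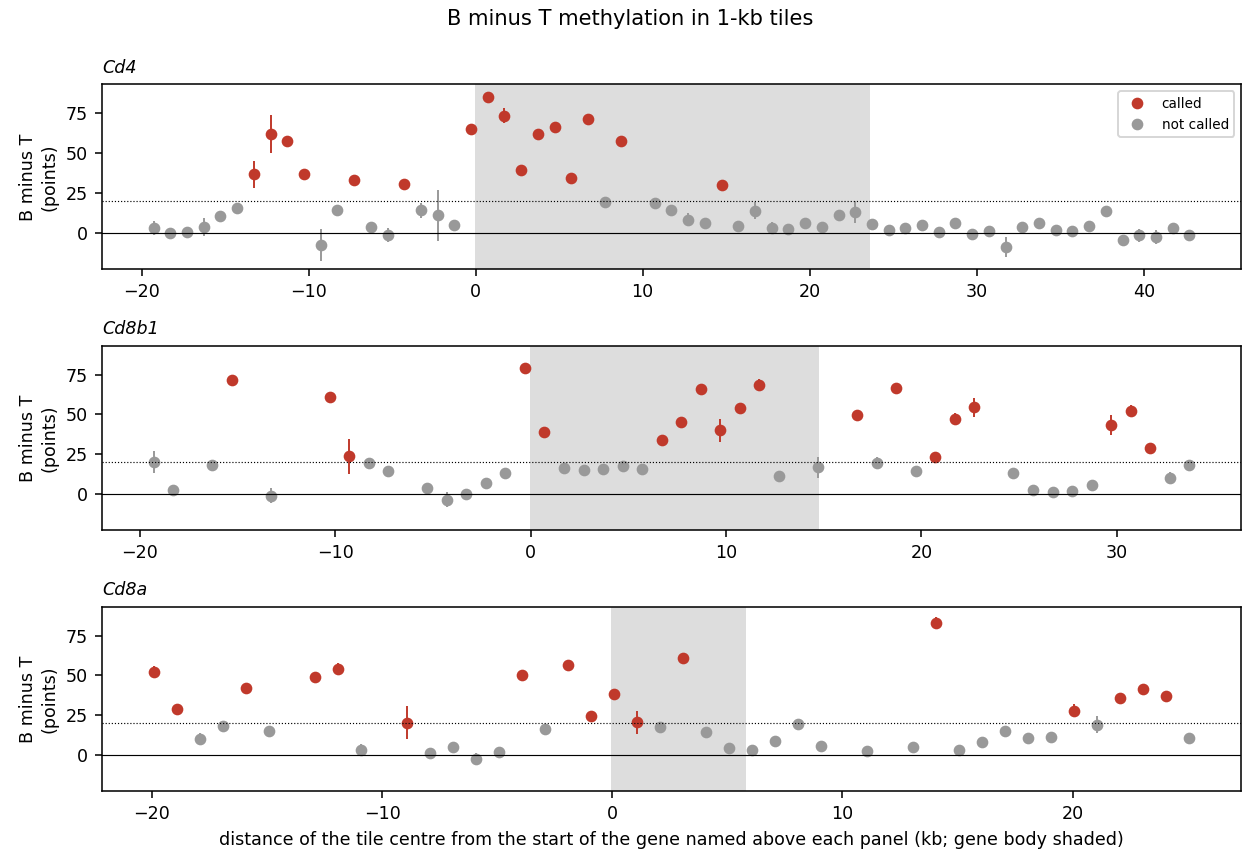
B minus T methylation (percentage points) of 1-kb tiles against the distance of the tile centre from the gene start (kb), with the gene body shaded. Points are the mean of both sexes, bars join the female and male differences, red tiles were called and the dotted line marks 20 points, and no tile was called below 0.

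The windows differed in how B cells were methylated. The Cd8 windows held no low stretch in either B library and no CpG at 0% in B cells. In T cells there were 11 low stretches at Cd8b1 in females and 8 in males, and 5 at Cd8a in each sex. The Cd4 window held 6 low stretches in female B cells and 7 in male B cells, against 12 in female T cells and 11 in male T cells. Of the 12 stretches in female T cells at Cd4, 7 overlapped a B cell stretch. In the Cd8 windows no overlap was possible, since they held no B cell stretch. Stretches were sought in the 3 windows only. No share over the genome stands beside these counts, which compare the windows with each other. Most of the stretches shared at Cd4 lay at neighbouring genes. They covered the starts of Gpr162 and P3h3 and a part of Lag3, which encodes a receptor related to CD4. The Gpr162 promoter differed by 3.16 points (adjusted p 4.82e-07), with 2.79% and 4.77% in female and male B cells and 0.520% and 0.720% in female and male T cells. The P3h3 promoter differed by 2.68 points (edgeR adjusted p 0.286), with 8.04% to 12.6% in the 4 libraries.

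**Figure D5:**
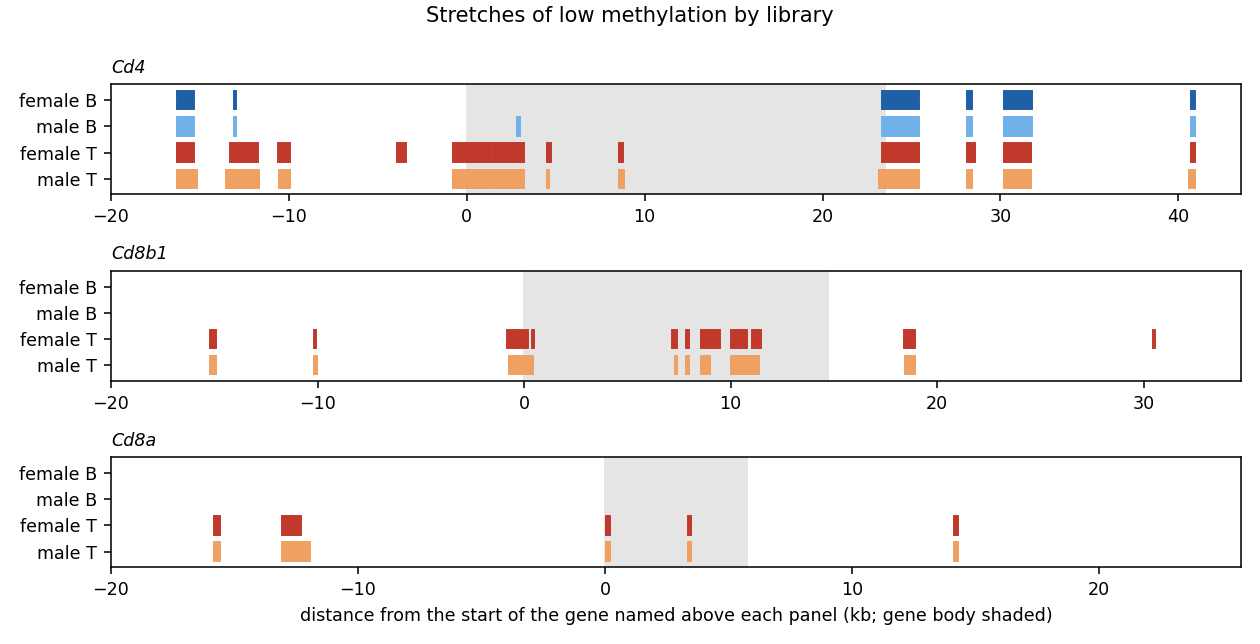
Low stretches by library against the distance from the gene start (kb), with the gene body shaded. Each bar is a run of at least 4 CpGs with a share of methylated reads below 30% over 3 neighbouring CpGs, and the B cell rows of both Cd8 panels are empty while T cells have 5 to 11 stretches.

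In T cells the stretch around the Cd4 start was the longest that overlapped no B cell stretch. It ran from -0.784 kb to +1.33 kb over 24 CpGs with 7.10% methylated reads in female T cells and 6.10% in male T cells. Another followed from +1.42 kb to +3.22 kb over 29 CpGs with 3.28% and 3.37%, which contains the short stretch that was low in male B cells. Both had the same limits in the 2 T libraries. In B cells the same intervals had 72.8% and 75.1%, and 63.0% and 69.0%, in females and males. At Cd8b1 the stretch over the start ran from -0.848 kb to +0.199 kb in female T cells (12 CpGs, 6.44%) and from -0.735 kb to +0.422 kb in male T cells (17 CpGs, 13.5% and 11.0% in female and male T cells). The stretch at the Cd8a start was shorter, at 160 bases in female T cells and 150 in male T cells.

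Single CpGs repeated the contrast. A CpG was counted when B cells were 50 points or more above T cells in both sexes, which held for 0.643% of all CpGs. It held for 73 of 937 CpGs in the Cd4 window (7.79%), 107 of 548 in the Cd8b1 window (19.5%) and 65 of 455 in the Cd8a window (14.3%). Within the promoters the counts were 16 of 23 at Cd4, 19 of 29 at Cd8b1 and 4 of 39 at Cd8a. In the Cd4 downstream flank it held for 1 of 469 CpGs. The opposite difference held for 0.255% of all CpGs and for 0 in the 3 windows.

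Upstream of Cd8a, between the genes, a further stretch was low in both T libraries and is shown because it holds a RUNX motif.
Cd8a upstream, -15.8 to -15.6 kb, chr6:71357602-71357853: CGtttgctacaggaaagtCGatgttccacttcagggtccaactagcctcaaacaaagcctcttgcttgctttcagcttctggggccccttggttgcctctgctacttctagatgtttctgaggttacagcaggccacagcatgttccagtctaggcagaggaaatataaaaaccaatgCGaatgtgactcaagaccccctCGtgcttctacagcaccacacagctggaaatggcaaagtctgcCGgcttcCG
Its level was 71.7% in female B cells, 81.6% in male B cells, 12.2% in female T cells and 10.1% in male T cells. TGTGGT or its reverse complement occurred 1 time here and 1 time in the stretch upstream of Cd8b1. On chromosome 6, 16.9% and 19.3% of windows of the same lengths held it. The E-box CAGGTG occurred 1 time in the stretch upstream of Cd8b1 and 1 time in the stretch downstream of Cd8a, in 16.4% and 9.82% of windows of those lengths. AGATAA occurred in none of the 7 stretches. These matches describe the letters only.

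Sex made no difference that passed the test. None of the 146 tiles was called between females and males by edgeR or limma, whereas 8 tiles (edgeR) and 4 (limma) had an unadjusted p below 0.05, against 0.0868% of tiles called over autosomes and X. The B minus T difference itself was not called as different between the sexes in any tile, against 0.00157% called over the genome. At an unadjusted p below 0.05 there were 10 tiles (edgeR) and 6 (limma). The edgeR fit behind it had no sex term and a common dispersion of 0.0171, against 0.00626 in the fit with sex. At such shares over the genome, 0 calls in 146 tiles are usual, so both counts say little about sex at these loci. All 50 tiles called between cell types had the same sign in both sexes, which a mean of at least 20 points favours, and 47 reached 20 points in both. Leaving out a library kept 48 to 50 of these 50 calls.

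Genes that act with or on the coreceptors were read in the same promoter fit. Of 24 regulators and partners, 3 were called higher in B cells, 10 passed the adjusted p only, all higher in B cells, and 11 did not pass. These counts stand beside 0.956% of all promoters called and 16.7% past the adjusted p only. Lck, Tcf7 and Bcl11b are also on the list of T cell markers. The median difference was 1.64 points, beside 0.970 points over all promoters. Zap70, the kinase that binds the active T cell receptor, differed by 68.0 points (84.8% and 88.4% in female and male B cells, 20.2% and 17.0% in female and male T cells). Lck, the kinase that CD4 and CD8 carry, differed by 63.3 points (70.2% and 71.5%, 7.65% and 7.49%). Runx3, which acts for the CD8 fate, differed by 27.3 points, with 60.3% and 59.6% in female and male B cells and 34.2% and 31.1% in female and male T cells. In the fits that left out 1 library, the Runx3 difference stayed between 25.8 and 28.8 points but did not pass. Those fits had a larger dispersion, no sex term and a spread shared less between promoters. With 500 bases on either side of its start, the difference was 12.1 points. The promoter of Zbtb7b, the gene of ThPOK, was nearly unmethylated in all libraries, with 1.77% and 2.56% in female and male B cells and 0.846% and 0.40% in female and male T cells (1.54 points, adjusted p 0.00286).

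The promoters most like those of the coreceptors were found by the Euclidean distance between the levels in the 4 libraries, over 19727 autosomal promoters. Nearest to Cd4 were Lck (distance 3.44 points), Pdcd4 (6.54) and Ms4a6b (9.35). Ntn5 (0.840), Ifng (3.48) and Tex50 (5.05) were nearest to Cd8a. Ifng, which encodes interferon gamma, had 86.1% and 83.7% in female and male B cells and 54.9% and 55.6% in female and male T cells. Igsf23 (6.38), Gm10428 (7.88) and Cxcr6 (8.07) were nearest to Cd8b1. These distances describe levels in 4 libraries only.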

How the data were processed

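WGoxBS libraries of B and T cells from female and male mice were compared. The authors deposited, for each CpG with at least 5 reads, its methylation level as a fraction and its number of reads as a count, with both strands joined. Per the labels, Trim Galore, FastQC and Bismark 0.13.1 were used with mm10. Of the 8 samples in the labels, the 2 in each group share a table, so 4 libraries were analysed. Each table bears in its name the number of only 1 of these samples, which may mean that it holds that sample alone, but the labels do not settle this.

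Levels were rounded up to 3 decimals, and methylated reads were recovered by rounding the product of level and reads down (100% of levels matched). Sums of reads took only CpGs that every library listed, within promoters (1 kb on either side of the start), introns, gene bodies and 20-kb flanks of all protein-coding genes (GENCODE mouse release M21) and 1-kb tiles. Regions needed 5 CpGs and 20 reads in each library. Methylated and unmethylated counts were fitted with edgeR 4.0.16 (glmQLFit, glmQLFTest, R 4.3.3), with a term per library and terms for methylation, cell type and sex, the dispersion being taken from 20000 regions drawn with a fixed seed or all of a smaller kind. With 1 residual degree of freedom, promoters, introns, upstream flanks and tiles were judged against a fully shared spread, and gene bodies and downstream flanks nearly so. A second fit replaced the sex term by the interaction of cell type and sex. The procedure was tested on simulated data. Alternatives were 10 reads per CpG, limma 3.58.1 on log2 ratios with 0.5 added, no minimum difference, other region sizes, unweighted means and leaving out each library. The p-values measure the spread between 4 libraries, which may be technical.

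Named were every tested intron, the 8 called tiles with the largest difference per window, genes starting in a window, called regulators and the 3 most like promoters. Members and lists were chosen with earlier results of these data known. Zbtb7b, Itgam, Lyz2, Themis, Lag3 and Ifng were described after their values were seen.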

Additional observations from a re-analysis of the deposited data

How the results depend on the processing

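The B minus T differences of the 3 promoters kept their direction under every alternative. The Cd8a promoter lost its call without female T cells (28.2 points), male B cells (28.0 points) or male T cells (29.4 points). Its difference ranged from 28.0 to 29.5 points when 1 library was left out. Those fits had no sex term, a larger dispersion, a spread from 1 cell type alone and less sharing of it between promoters. The differences of Cd4 and Cd8b1 ranged from 60.7 to 64.0 and from 59.1 to 62.1 points and stayed called. With 500 bases on either side of the start the differences were 65.9 (Cd4), 36.9 (Cd8a) and 73.7 points (Cd8b1). Called introns went from 7 to 0 with limma. Without a minimum difference, called regulator promoters went from 3 to 13, tiles at Cd4 from 16 to 31 and tiles in the Cd8 windows from 34 to 64. With 2-kb tiles, which leave fewer tiles to test, 8 of 32 tiles at Cd4 and 22 of 49 in the Cd8 windows were called. Counts of gene bodies and flanks stayed between 6 and 8, and those for sex and for cell type by sex at 0. B and T cells could not be paired by replicate, because the groups share no replicate numbers and each has 1 table. They were matched by sex only, through the sex term. Depth limits single CpGs most, at a median of 13 to 18 reads, and CpGs under 5 reads in a library are not listed. The intervals cover counting error only. They may be too narrow, since a read counts at each CpG it covers and reads carry no molecular identifiers.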
